A study of Mus musculus with 5 samples.

Results

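Peaks of acetylated histones were described at 8 genes whose products bind acetylated lysine: Yeats4, Yeats2, Mllt1, Mllt3, Brd2, Brd3, Brd7 and Brd9, of 21951 protein-coding genes in the annotation. The genes were chosen by name as readers of the acetyl mark, with Yeats4 added for a strong promoter peak found in the WT lists and missing from all TPdh-/- lists; the values that selected it are given as a description, with no test. Of the 8 genes, 7 had a peak within the gene or 10 kb of it in at least 1 library, and 5 had a promoter peak, defined as a peak within 3000 bp of an annotated transcription start site.

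ChIPseq was performed on mouse CD8+ T cells of memory type (TM): OT-I cells that were activated with OVA peptide and then cultured in IL-15, in both groups. The 5 libraries were 2 of wildtype cells (WT 1 and 2) and 3 of PDH_Mutant cells (TPdh-/- 1 to 3). In the paper, TPdh-/- mice are those from crosses of B6.129P2-Pdha1tm1ptl/J and CD4-Cre mice. It does not describe the cross or exact genotype of the WT mice. Pdha1 encodes the E1 alpha subunit of the pyruvate dehydrogenase complex, CD4-Cre acts in T cells from the CD4-expressing stage in the thymus, and mice of both sexes aged 8 to 12 weeks were used. Chromatin was precipitated with an antibody to acetylated lysine of histones (ab1191), which the labels describe as acetyl K18. Nothing in the labels says whether the libraries came from separate animals, so the spread between them may be technical.

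Acetyl groups on histone tails are placed by acetyltransferases that use acetyl-CoA, which the pyruvate dehydrogenase complex makes from pyruvate. The mark is read by protein modules, chiefly bromodomains and YEATS domains, which bring chromatin remodelling, acetyltransferase and elongation complexes to active promoters. The genes of these readers are themselves transcribed from promoters whose nucleosomes can carry the mark, and it is these promoters that are described.

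The lists held 15962 peaks in WT 1, 8859 in WT 2, and 4920, 5419 and 9418 in TPdh-/- 1, 2 and 3. They give for each peak a fold enrichment over background, a linear ratio, and a −log10 q value, but no read numbers, so depth is unknown. Because peaks were called on each library alone, strength is given below as a percentile, the percent of the peaks of the same list that ranked lower by −log10 q. Among 8 marker genes of CD8 T cells, Cd8b1 and Lck had a promoter peak in all 5 libraries, while Cd8a and Cd2 had one in WT 1 alone; the 8 markers had 8, 6, 2, 4 and 6 promoter peaks in the order WT 1, WT 2, TPdh-/- 1, 2 and 3. The 3 myeloid and 2 liver markers had no promoter peak in any library. Pdha1 itself had a promoter peak in WT 1 alone, at percentile 18.4, and a peak of acetylated histones does not test the deletion.

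The RefSeq promoters of 4 of the genes are shown because each stands for one pattern of peaks: Yeats4 with a peak in WT lists alone, Brd9 with a peak in 3 lists, Brd2 with a peak in all 5, and Yeats2 with none. Each runs 5′ to 3′ on the strand of the gene, 250 bases before the start site and 50 after it, on GRCm38.p6. They lie at chr10:117224458-117224757 on the minus strand for Yeats4, chr13:73937561-73937860 on the plus strand for Brd9, chr17:34119851-34120150 on the minus strand for Brd2 at its innermost listed start, and chr16:20140813-20141112 on the plus strand for Yeats2. Capitals mark short motifs, which were chosen after the sequences had been seen and were searched on both strands: the GC box (GGGCGG, a site of SP factors), the CCAAT box of the factor NF-Y, the core CGCATGCG of NRF1 sites, the core CCGGAAG of ETS sites and the core AAGATGGC of YY1 sites.
Yeats4: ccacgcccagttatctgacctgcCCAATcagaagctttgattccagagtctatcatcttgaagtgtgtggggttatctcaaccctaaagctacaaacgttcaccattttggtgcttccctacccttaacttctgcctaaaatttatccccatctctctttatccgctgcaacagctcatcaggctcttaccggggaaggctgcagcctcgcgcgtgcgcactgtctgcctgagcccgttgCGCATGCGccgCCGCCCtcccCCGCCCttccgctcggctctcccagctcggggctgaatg
Brd9: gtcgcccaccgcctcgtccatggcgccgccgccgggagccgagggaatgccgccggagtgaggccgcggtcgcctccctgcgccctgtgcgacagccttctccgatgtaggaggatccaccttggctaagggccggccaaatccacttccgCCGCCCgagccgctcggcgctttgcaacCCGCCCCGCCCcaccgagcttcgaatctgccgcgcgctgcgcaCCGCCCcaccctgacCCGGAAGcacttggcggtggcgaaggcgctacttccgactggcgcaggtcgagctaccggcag
Brd2: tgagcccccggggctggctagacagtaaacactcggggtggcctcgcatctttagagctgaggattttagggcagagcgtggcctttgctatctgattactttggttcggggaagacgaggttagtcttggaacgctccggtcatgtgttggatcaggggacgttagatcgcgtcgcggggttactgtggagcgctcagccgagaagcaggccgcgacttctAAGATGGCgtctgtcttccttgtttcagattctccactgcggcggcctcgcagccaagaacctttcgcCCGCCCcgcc
Yeats2: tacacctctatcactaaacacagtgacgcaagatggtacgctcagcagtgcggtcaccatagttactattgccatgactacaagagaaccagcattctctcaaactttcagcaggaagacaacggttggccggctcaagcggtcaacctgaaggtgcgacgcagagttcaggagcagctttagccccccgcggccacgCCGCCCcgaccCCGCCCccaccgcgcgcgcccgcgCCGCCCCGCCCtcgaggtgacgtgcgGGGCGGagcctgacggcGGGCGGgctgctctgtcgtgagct

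All 8 genes matched the RefSeq promoter table, which holds 32851 promoters of 27025 genes. The Yeats4 promoter had a GC content of 56.3% and 17 CpG dinucleotides, against medians of 52.7% and 7 over the table. It held 2 GC boxes after the start, 1 CCAAT box whose first base lay 227 bases before it, and 1 NRF1 core beginning 10 bases before it. The NRF1 core was present in 1.87% of all promoters in the table, the GC box in 35.7% and CCAAT in 37.4%. The Yeats2 promoter, with no peak in any list, had 6 GC boxes, some overlapping each other, a GC content of 63.7% and 30 CpG dinucleotides. The Brd9 promoter had 4 GC boxes, an ETS core (8.86% of promoters), a GC content of 72% and 40 CpG dinucleotides. The Brd2 promoter shown had 1 GC box, a YY1 core (2.75% of promoters), a GC content of 58.7% and 24 CpG dinucleotides, and the outermost Brd2 promoter held an NRF1 core too. The most CpG-dense promoters of the 8 genes, those of Mllt1 and Brd3 with 46 CpG dinucleotides each, had no peak over them in any list. Letters of the E-box (CACGTG) stood in 7.15% of all promoters, those of the TATA box (TATAAA) in 13.6% and those of the cyclic AMP response element (TGACGTCA) in 1.79%, and none of these was in a promoter printed here.

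Across the libraries, 5 of the 8 genes had a promoter peak in WT 1, 4 in WT 2, 1 in TPdh-/- 1, 1 in TPdh-/- 2 and 4 in TPdh-/- 3. WT libraries averaged 4.5 ± 0.707 genes (SD, n = 2) and TPdh-/- libraries 2 ± 1.73 (SD, n = 3), and the groups met at 4 genes. The genes with a promoter peak per library followed the length of the lists, in which 42.1%, 24.8%, 15.3%, 16.5% and 27.9% of all protein-coding genes had a promoter peak in WT 1, WT 2 and TPdh-/- 1 to 3, and the part of list length in these counts was not tested. When each list was limited to its 4920 strongest peaks, the length of the shortest list, the means were 2 in WT and 1 in TPdh-/-. The genes left were Yeats4 and Brd9 in both WT lists, Brd2 in TPdh-/- 1 and 2, and Brd9 in TPdh-/- 3. Yeats4, which was selected on its WT peaks, is part of every WT count and mean of the reader genes here. The differences between the groups therefore rest in part on the values that selected it. Counting every peak within 10 kb of the genes, there were 12 and 8 in WT and 3, 2 and 9 in TPdh-/-. The means were 10 ± 2.83 (SD, n = 2) against 4.67 ± 3.79 (SD, n = 3), and the groups again overlapped. The full lists held 15962 and 8859 peaks in WT and 4920, 5419 and 9418 in TPdh-/-. The part of list length in the counts within 10 kb was not tested either.

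Each of the 5 genes with a promoter peak can be read against the 9493 protein-coding genes that had one in at least 1 library. Brd2 was the 1 reader gene with a promoter peak in all 5 libraries, a pattern of 25.2% of those 9493 genes, and the count was 0 at a −log10 q of at least 2, at one of at least 5 and with lists of equal length, its −log10 q in WT 2 being 1.94. Yeats4 was the 1 with a peak called in WT 1 and WT 2 alone, a pattern of 5.1% of them, and since it was selected on that pattern nothing is read from the count. Brd7 and Brd9 had a peak in both WT libraries and TPdh-/- 3 alone, a pattern of 11.1%, and Mllt3 had one in WT 1 and TPdh-/- 3 alone, a pattern of 9.15%. Yeats2, Mllt1 and Brd3 had no promoter peak in any library, as had 56.8% of all 21951 protein-coding genes. None of these counts over so few genes was tested.

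**Figure D1:**
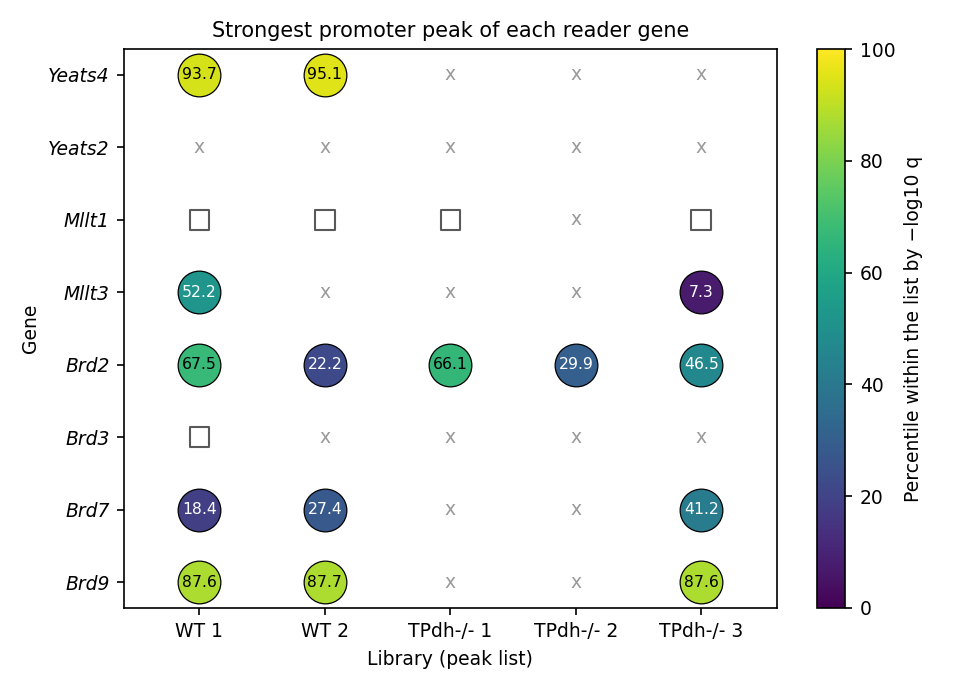
Strongest promoter peak of each of the 8 reader genes (rows) in each library (columns). Circles give the percentile of the peak within its list by −log10 q, open squares mark genes with a peak within 10 kb but none at the promoter, and an x marks no peak. Yeats4 is at 93.7 and 95.1 in WT and has an x in the 3 TPdh-/- libraries, Brd9 is at 87.6 to 87.7 in 3 libraries, and Brd2 has a circle in all 5.

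Yeats4 (ENSMUSG00000020171.8, chr10:117215221-117224507, minus strand) encodes GAS41, the YEATS-domain subunit of the TIP60 acetyltransferase and SRCAP remodelling complexes, which deposit the histone variant H2A.Z. In WT 1 its promoter peak lay at chr10:117223830-117224775, was 946 bp wide, and had a fold enrichment of 3.89 and a −log10 q of 11.5, which ranked it 1009 of 15962. In WT 2 it lay at chr10:117224006-117224639, was 634 bp wide, and had a fold enrichment of 4.22 and a −log10 q of 8.88, rank 436 of 8859. The percentiles were 93.7 and 95.1, a mean of 94.4 ± 0.992 (SD, n = 2), so that the peak stood high in both WT lists although the lists differed in length. The narrower peak lay wholly inside the wider one, and both contained the start site, reaching from 268 bp before it to 677 bp after it in WT 1 and from 132 bp before to 501 bp after in WT 2. Of the 300 bases of promoter printed above, 300 were inside the peak of WT 1 and 182 inside that of WT 2, the NRF1 core and both GC boxes among them in each.

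No peak was listed within 10 kb of Yeats4 in the 3 TPdh-/- lists. The nearest to its start were 168732 bp away in TPdh-/- 1, 151332 bp away in TPdh-/- 2, at Cpsf6, and 118201 bp away in TPdh-/- 3. Within 500 kb of the start there were 3, 4 and 10 peaks in TPdh-/- 1, 2 and 3, against 15 and 6 in WT 1 and 2 beside the promoter peak. The fold enrichment of the WT 1 peak was reached by 90, 99 and 201 peaks in the 3 TPdh-/- lists, and that of the WT 2 peak by 34, 38 and 55. Why no Yeats4 peak was listed there was not tested, and counts at other places do not decide it. A peak absent from a list is one that did not pass the caller's threshold, and its signal below that threshold is not known. The Yeats4 peak also holds the start of Gm48772, a non-coding RNA on the opposite strand whose start is 82 bp from that of Yeats4, and a peak cannot be assigned to either.

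Yeats4 ranked 3 of 484 protein-coding genes whose promoter peaks were called in WT 1 and WT 2 alone when these were ordered by mean WT percentile, whose median was 41.3. The genes nearest to it in that order were Mlst8 and 1500011B03Rik, each at 94.8, Exoc1 at 92.3 and Rrp15 at 89.5, and 4 of the 484 stood at 90 or above. Mlst8 encodes a subunit of both mTOR complexes, Exoc1 one of the exocyst, and Rrp15 a ribosome biogenesis factor. Taken gene by gene, 417 protein-coding genes had a promoter peak at or above percentile 93.7 in both WT lists. Of these, 386, 385 and 414 had a promoter peak in TPdh-/- 1, 2 and 3, and Yeats4 was the 1 gene (0.240%) with none in any of them. The limit of 93.7 is the lower value of Yeats4 itself, so this share describes its place and does not test it.

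Yeats2 (ENSMUSG00000041215.16, chr16:20141063-20232573, plus strand) encodes the YEATS-domain subunit of the ATAC acetyltransferase complex. It had no peak in the gene or within 10 kb in any of the 5 libraries. The nearest peak lay 42673 to 42993 bp from the gene, at the start of Klhl24, in all 5 libraries. That peak stood at percentiles 99.1 and 96.0 in WT and 94.4, 96.2 and 97.0 in TPdh-/-, so the lists of both groups held a strong peak close to a gene that had none.

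Mllt1 (ENSMUSG00000024212.9, chr17:56892611-56935415, minus strand) and Mllt3 (ENSMUSG00000028496.17, chr4:87769925-88033364, minus strand) encode ENL and AF9, YEATS-domain proteins that link acetylated chromatin to the super elongation complex and to the methyltransferase DOT1L. Mllt1 had no promoter peak in any library. An intron peak at least 21153 bp from the outermost start was called in WT 1, WT 2, TPdh-/- 1 and TPdh-/- 3, and the 4 peaks shared 469 bp at chr17:56913722-56914190. Its percentile was 40.9 and 29.1 in WT and 58.9 and 23.1 in TPdh-/- 1 and 3, with folds of 1.93, 2.08, 2.69 and 2.06 in the same order, so the values of the groups overlapped. A second peak 6759 to 7637 bp beyond the 3′ end was called in WT 1, WT 2 and TPdh-/- 3, at percentiles 13.7, 30.1 and 3.16. Mllt1 was thus a gene with peaks that lay inside and beyond it and none at the starts annotated for it.

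Mllt3 had a broad promoter peak in WT 1 and TPdh-/- 3. It was 2753 bp wide with a fold of 2.14 in WT 1 and 3212 bp wide with a fold of 1.98 in TPdh-/- 3, and the 2753 bp of the first lay inside the second. The ranks were 7632 of 15962, percentile 52.2, and 8734 of 9418, percentile 7.27. An antisense RNA, Gm12631, starts 137 bp from the outermost Mllt3 start within the same peak. Inside the gene, an intron peak 47956 to 49642 bp from that start was called in the same pair of libraries, at percentiles 44.2 in WT 1 and 25.1 in TPdh-/- 3, and another was called in WT 1 at percentile 28.4. All peaks of Mllt3 came from these 2 libraries, 1 of each group.

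**Figure D2:**
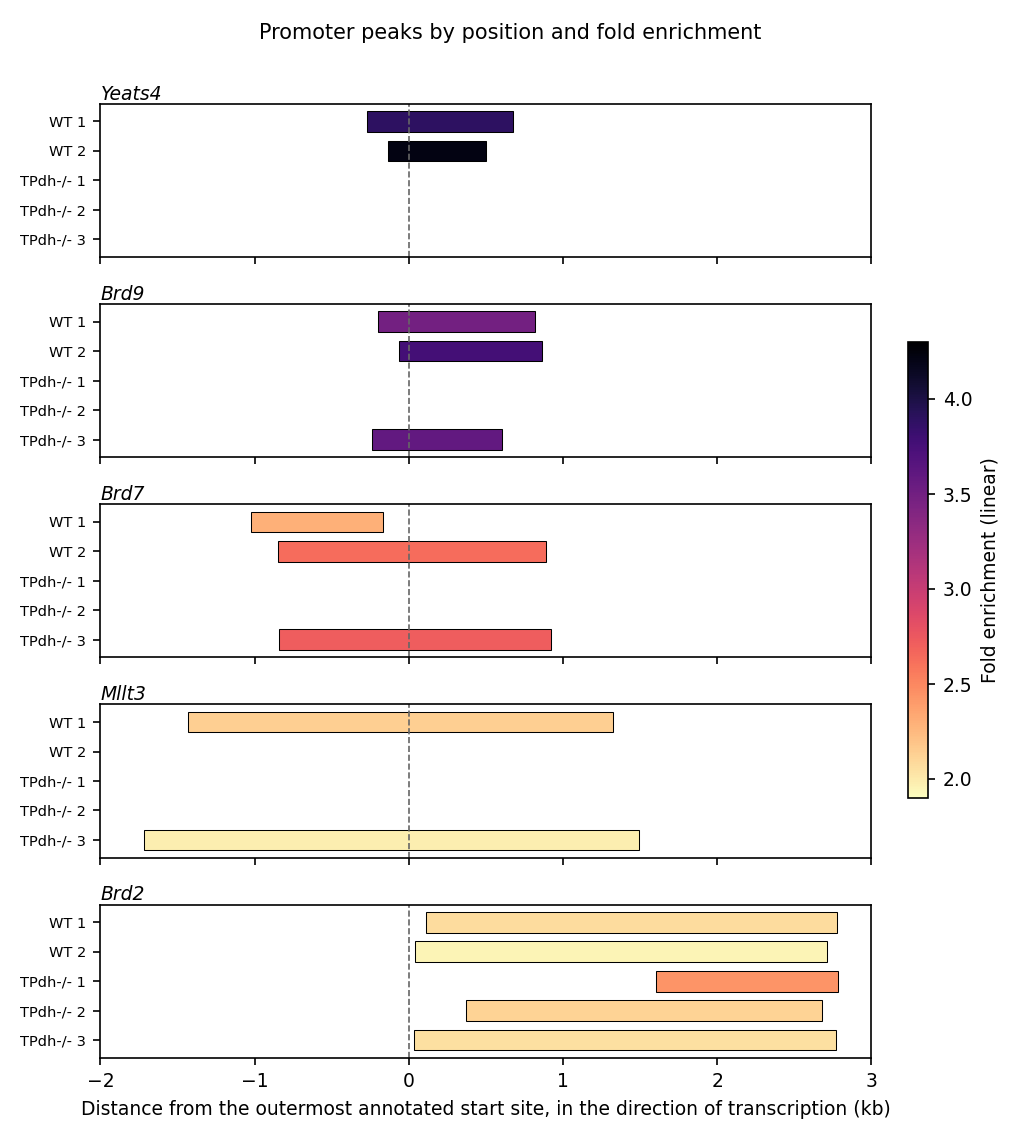
Promoter peaks of Yeats4, Brd9, Brd7, Mllt3 and Brd2 in each library, drawn by distance from the outermost annotated start site in kb (dashed line at 0, positive values in the direction of transcription) and coloured by fold enrichment on a linear scale. The peaks of Yeats4 and Brd9 are narrow and dark around the start, those of Mllt3 and Brd2 are broad and pale, and the Brd2 peaks lie to the right of the start.

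Brd2 (ENSMUSG00000024335.20, chr17:34112023-34122634, minus strand) and Brd3 (ENSMUSG00000026918.16, chr2:27445579-27507662, minus strand) encode BET proteins, each with a pair of bromodomains that bind acetylated histones at active genes. Brd2 had a promoter peak in all 5 libraries, which spanned 2665 and 2674 bp in the WT lists and 1176, 2316 and 2738 bp in the TPdh-/- lists. The peaks began 31 to 368 bp inside the outermost start in 4 libraries and 1606 bp inside it in TPdh-/- 1, and all ended 2683 to 2781 bp inside it. They shared 1078 bp at chr17:34119951-34121028. Of the Brd2 promoter printed above, 291 and 227 bases were inside the peak in WT and 298, 200 and 285 in TPdh-/-.

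The folds of the Brd2 promoter peak were 2.07 and 1.95 in WT and 2.44, 2.12 and 2.05 in TPdh-/-. By −log10 q the peak ranked 5194 and 6889 in WT and 1667, 3800 and 5040 in TPdh-/-. By rank number it thus stood higher in every TPdh-/- list than in either WT list. Rank and percentile both depend on list length, and the part of list length was not tested. The percentiles of the peak were 67.5 and 22.2 in WT and 66.1, 29.9 and 46.5 in TPdh-/-. On that scale the WT values lay on either side of all TPdh-/- values. WT libraries averaged 44.9 ± 32.0 (SD, n = 2), TPdh-/- libraries averaged 47.5 ± 18.1 (SD, n = 3), and the difference of −2.65 percentile points was smaller than the spread between libraries (exact permutation test over 10 splits, two-sided p = 1). With 2 libraries against 3 the smallest two-sided p that this test can give is 0.2, so no difference between the groups could have passed 0.05. Brd2 was the 1 reader gene that could be tested, since the others had no promoter peak in at least 1 library. Leaving out WT replicate 2 made the difference 20.0, and leaving out TPdh-/- replicate 1 made it 6.66, so its sign depended on a single library of either group.

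A second peak 8268 to 8657 bp beyond the 3′ end of Brd2, at the start of CR974462.2, was also called in all 5 libraries, at percentiles 73.6 and 59.3 in WT and 27.5, 5.77 and 44.3 in TPdh-/-. All WT values were above all TPdh-/- values here, while the folds, at 2.38 and 2.51 in WT and 2.44, 2.21 and 2.22 in TPdh-/-, overlapped. A further peak 6043 to 6203 bp before the outermost start, at CR974462.4, was called in WT 1, WT 2 and TPdh-/- 3 at percentiles 72.8, 76.4 and 27.2, with folds of 2.69, 3.06 and 2.42. Brd2 lies in the major histocompatibility complex, and its promoter peak was within 3000 bp of the starts of H2-DMa, which encodes a chaperone of peptide loading, and of the antisense RNA CR974462.3. The start of H2-DMa was 219 bp or more from the peak and that of CR974462.3 lay inside it.

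Brd3 had no promoter peak in any library. A single peak was called within 10 kb of it, in WT 1, of 744 bp with a fold of 2.34 at percentile 11.9. It lay 6660 bp before the outermost Brd3 start and 92 bp from that of Wdr5, which encodes a core subunit of histone methyltransferase complexes. A peak 32089 to 32302 bp away, at Gm13421, was among the strongest of each list, at percentiles 99.8 and 99.1 in WT and 94.0, 95.7 and 99.8 in TPdh-/-.

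Brd7 (ENSMUSG00000031660.13, chr8:88331039-88362194, minus strand) and Brd9 (ENSMUSG00000057649.6, chr13:73937811-73960895, plus strand) encode the bromodomain subunits that mark a pair of SWI/SNF remodelling complexes, PBAF and ncBAF. Both had a promoter peak in WT 1, WT 2 and TPdh-/- 3 and none in TPdh-/- 1 and 2. The Brd7 peak was 860 bp wide with a fold of 2.30 in WT 1, 1736 bp wide with a fold of 2.64 in WT 2, and 1764 bp wide with a fold of 2.72 in TPdh-/- 3. Its percentiles of 18.4, 27.4 and 41.2 put it below the middle of each list by −log10 q, while ranked by fold enrichment it stood at 42.2, 58.0 and 66.8, and by both measures it was highest in the TPdh-/- library. In WT 1 the peak ended 166 bp before the start, whereas in the other lists it ran from 844 or 848 bp before it to 919 or 887 bp after it. Of 4863 protein-coding genes with a promoter peak at or above percentile 18.4 in both WT lists, 25.3% had none in TPdh-/- 1 and 2, as Brd7 had none.

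The Brd9 peak was 1019, 926 and 844 bp wide in WT 1, WT 2 and TPdh-/- 3, with folds of 3.49, 3.77 and 3.60. It ranked 1987 of 15962, 1086 of 8859 and 1172 of 9418. These are percentiles of 87.6, 87.7 and 87.6, so its percentile hardly differed between these lists, although its rank number did. The 3 peaks shared 668 bp at chr13:73937748-73938415, around the start. Trip13, which encodes an ATPase of the spindle checkpoint, starts 27 bp away on the opposite strand inside the same peak. In TPdh-/- 1 and 2 the nearest peaks were 199719 and 233477 bp from the start, and 3 and 2 peaks lay within 500 kb of it. Among 851 protein-coding genes at or above percentile 87.6 in both WT lists, 90.4%, 90.1% and 98.7% had a promoter peak in TPdh-/- 1, 2 and 3. Brd9 was 1 of 41 of these genes (4.82%) with none in TPdh-/- 1 and 2, and 37 of the 41, Brd9 included, had one in TPdh-/- 3. Brd9 and Yeats4 were thus the reader genes with strong narrow promoter peaks in WT, and they differed in TPdh-/- 3.

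**Figure D3:**
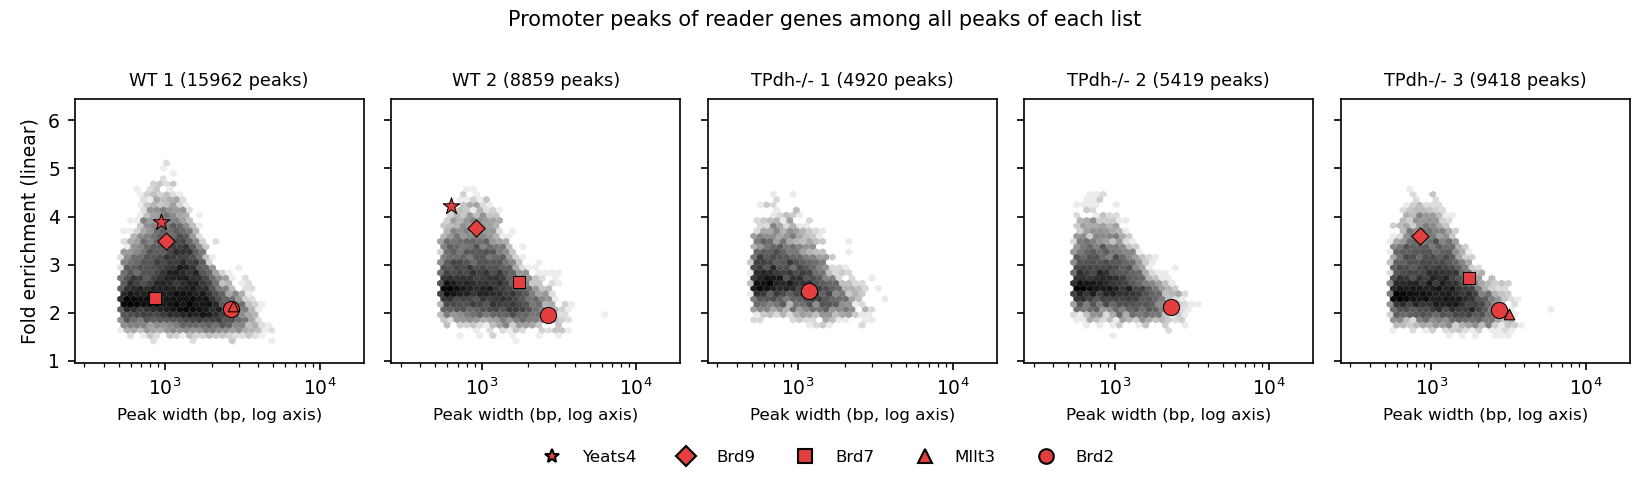
Fold enrichment (linear) against width (bp, log axis) for every peak of each list (grey, darker where peaks are denser), with the promoter peaks of the reader genes in red. Yeats4 (star) and Brd9 (diamond) lie near the upper edge at about 1 kb or less, Brd2 (circle) and Mllt3 (triangle) at the broad, low end, and the panels of TPdh-/- 1 and 2 hold Brd2 alone.

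Over the 8 genes, 34 peaks were called within 10 kb, 15 of them at promoters. The promoter peaks were 634 to 3212 bp wide, with folds of 1.95 to 4.22 (median 2.44) and percentiles of 7.27 to 95.1 (median 52.2), and 8 of the 15 stood above the 50th percentile. The 19 other peaks had folds of 1.85 to 3.06 (median 2.31) and percentiles of 3.16 to 76.4 (median 29.1). The strong peaks of Yeats4 and Brd9 thus stood at promoters, and the peaks in introns and flanks stayed below them. The peaks farthest from a gene but inside the 10 kb limit were those of Brd2 at up to 8657 bp, at percentile 5.77 in TPdh-/- 2. The first peaks beyond the limit were those at Gm12646, 12339 to 12986 bp from Mllt3 in WT 1, WT 2, TPdh-/- 2 and TPdh-/- 3, at percentiles 65.6, 59.8, 28.7 and 44.4, and 1 in WT 1 at 13202 bp from Brd2, at percentile 19.2.

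Other readers and the partners of the 8 genes in their complexes were taken from 6 lists of 85 genes in all, listed by known function. Of these 85, 73 had a promoter peak in at least 1 library: 71 in WT 1, 47 in WT 2, and 36, 41 and 55 in TPdh-/- 1, 2 and 3. As shares of the 85 these were 83.5% and 55.3% in WT and 42.4%, 48.2% and 64.7% in TPdh-/-, where all protein-coding genes had 42.1%, 24.8%, 15.3%, 16.5% and 27.9% in the same order. A promoter peak in all 5 libraries was called at 30 of the 73 (41.1%, against 25.2% of all coding genes with a promoter peak), and 12 of the 85 had none. The pattern by which Yeats4 was selected was found at 1 of the 73 (1.37%, against 5.1%), Zmynd11, at percentiles 41.5 and 50.9 in WT 1 and 2. Zmynd11 encodes a bromodomain protein that reads methylated histone H3.3. A peak in TPdh-/- alone was found at 1 of the 73, Brwd1, in TPdh-/- 2 at percentile 73.7. Of the 9493 protein-coding genes with a promoter peak in any library, 16 had one in TPdh-/- 1 alone, 49 in TPdh-/- 2 alone and 94 in TPdh-/- 3 alone. A further 1 had one in TPdh-/- 1 and 2 alone, 3 in TPdh-/- 1 and 3 alone, and 3 in TPdh-/- 2 and 3 alone. Nothing is read from the single gene Brwd1. The full reverse of the Yeats4 pattern, a peak in all 3 TPdh-/- libraries and neither WT library, was found at 0 of the 73. No protein-coding gene of the annotation had that pattern, so this 0 says nothing of the lists.

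The partners of Yeats4 in the TIP60 and SRCAP complexes numbered 21. Of these, 18 and 10 had a promoter peak in WT 1 and 2 and 8, 10 and 15 in TPdh-/- 1, 2 and 3. All protein-coding genes had 42.1%, 24.8%, 15.3%, 16.5% and 27.9% in the same order. A peak in all 5 libraries was called at 7 of the 18 with a promoter peak in any library (38.9%, against 25.2%), and 0 of the 18 had the pattern of Yeats4, against 5.1% of all coding genes with a promoter peak, a share at which so short a list may hold none. Kat5, the acetyltransferase of the TIP60 complex, was at percentiles 99.8 and 99.7 in WT and 98.6, 99.7 and 99.8 in TPdh-/-. Epc1, a scaffold subunit, was at 99.9 and 99.8 in WT and 99.7, 99.7 and 99.8 in TPdh-/-. Srcap, the ATPase of the SRCAP complex, had a peak in WT 1 at 96.3 and TPdh-/- 3 at 94.8 alone. H2afz, which encodes H2A.Z, was at 81.8 and 81.2 in WT and at 44.5 and 25.6 in TPdh-/- 1 and 3, with no peak in TPdh-/- 2. The 4 named here were chosen after their values were seen, for their roles.

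The remaining partner lists, of 7 to 11 genes each, held 0 genes with the pattern of Yeats4, which at a background of 5.1% says little of lists this short. Of 10 ATAC partners of Yeats2, 9 and 5 had a promoter peak in WT and 3, 5 and 6 in TPdh-/-. Of 11 super elongation and DOT1L partners of Mllt1 and Mllt3, 9 and 7 had one in WT and 7, 6 and 7 in TPdh-/-. Of 10 PBAF partners of Brd7, 9 and 8 had one in WT and 5, 5 and 9 in TPdh-/-. Of 7 ncBAF partners of Brd9, all 7 had one in both WT libraries and 5, 6 and 7 in TPdh-/-. In each of these lists the most promoter peaks were called in WT 1, with TPdh-/- 3 at the same number in the PBAF and ncBAF lists and WT 2 in the ncBAF list, and the ranges of the groups met or overlapped in all of them. Of the 34 other readers, 27 and 18 had one in WT and 12, 16 and 19 in TPdh-/-. Over all protein-coding genes the shares were 42.1% and 24.8% in WT and 15.3%, 16.5% and 27.9% in TPdh-/-. Lower counts in TPdh-/- 1 and 2 than in WT 1 are thus not particular to these lists.

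**Figure D4:**
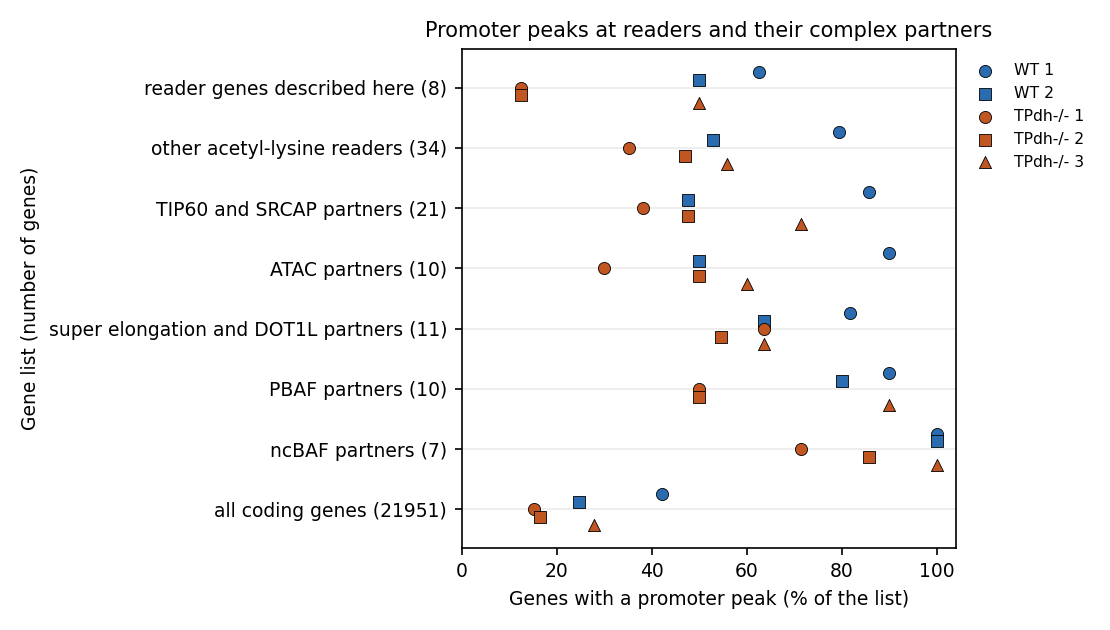
Percent of the genes of each list (vertical axis, number of genes in brackets) with a promoter peak, in each WT (blue) and TPdh-/- (orange) library. WT 1 is highest or level with the highest in every list, TPdh-/- 3 is level with or above the other TPdh-/- libraries in every list, and all coding genes range from 15.3% to 42.1%.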

How the data were processed

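ChIPseq peaks of acetylated histones were analysed from 5 libraries, 2 WT and 3 TPdh-/-, grouped by the genotype in the labels. The authors checked reads with FastQC 0.11.9, aligned them to GRCm38/mm10 with BWA-mem 0.7.17, kept uniquely mapped reads outside blacklisted regions with Samtools 1.15.1, and called broad peaks on each library with MACS2 2.2.6. The deposited lists give the fold enrichment, a linear ratio. Each peak also has its p-value and q-value on the −log10 scale, as the authors deposited them. An input control is not given in the sources used here. The lists hold no read numbers, and depth and counting error are unknown.

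Peaks within 10 kb of each gene were taken from the lists with Python 3.11.15, pandas 2.3.3 and numpy 2.4.6, using the GENCODE annotation of GRCm38 (141767 transcripts) and an overlap of at least 1 bp. Figures were drawn with matplotlib 3.10.9. The Brd2 promoter percentile was compared between the groups by an exact permutation test, and no other difference between the groups was tested. The promoter patterns were tested on simulated lists, in which 200 of 200 genes were recovered. Alternatives were a promoter of 1000 bp or by peak midpoint, a stricter −log10 q (2 or 5), equal list lengths, a width of at least 1000 bp, coding transcripts alone, flanks of 3 kb, ranking by fold, the replicate block and each library left out. The members and lists were chosen with earlier results of these data known. The genes named were the 8 readers, list genes with peaks in one group alone, the 4 genes nearest to Yeats4 by WT percentile and genes that start near a member's peak; Kat5, Epc1, Srcap and H2afz were added after seeing values. Not every gene looked up is reported here.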

Additional observations from a re-analysis of the deposited data

How the results depend on the processing

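Of the counts and the Brd2 difference recomputed under the alternatives, 14 moved beyond the spread between libraries or by more than 1.5 times, 2 reversed, and 52 did neither, although some of these still changed in size. The number of reader genes with a promoter peak in all 5 libraries, 1, fell to 0 at a −log10 q of at least 2, at a −log10 q of at least 5 and with lists of equal length, and it stayed at 1 without any single library. The number with a peak in the WT libraries alone, 1, was 0 with a width of at least 1000 bp, which removed Yeats4, and ranged from 1 to 3 over the left-out libraries, 3 without TPdh-/- replicate 3, when Brd7 and Brd9 joined Yeats4. The WT mean of 4.5 genes was 2.5 at a −log10 q of at least 5, 2 with lists of equal length and 2.5 with a width of at least 1000 bp. It ranged from 4 to 5 without single libraries. The TPdh-/- mean of 2 was 0.333, 1 and 1.67 under the same 3 settings and ranged from 1 to 2.5 without single libraries. Yeats4, selected on its WT peaks, is part of these WT means except that for a width of at least 1000 bp. Among the 85 other readers and partners, the 1 gene with the pattern of Yeats4 became 2 at a −log10 q of at least 2, 2 at a −log10 q of at least 5, 0 with lists of equal length and 2 with a width of at least 1000 bp, and 1 to 16 without single libraries, with 16 when WT replicate 2 was left out and 5 when TPdh-/- replicate 3 was. The Brd2 difference ranged from −25.3 to 20.0 percentile points without single libraries and turned positive in 2 cases, at 20.0 when WT replicate 2 was left out and at 6.66 when TPdh-/- replicate 1 was. Of the counts of peaks within 10 kb per library, 3 moved by more than 1.5 times and 7 by 1.5 times or less.

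With the replicate block, which pairs libraries by number, the Brd2 difference was −3.15 percentile points. The numbers are shared only as names, with 2 pairs. With lists of equal length no Brd2 difference could be computed, since WT 1, WT 2 and TPdh-/- 3 then had no Brd2 promoter peak. The cause of these changes was not tested. The lists end at a −log10 q of about 1, and without read numbers a weak signal below that limit cannot be told from none.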

Other observations

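The nearest peaks beyond the 10 kb limit of Brd2 lay at different genes in different libraries and are given as values alone. In TPdh-/- 1 and TPdh-/- 2 the nearest lay 64258 and 64159 bp from Brd2, at Psmb9 and Tap1, genes of antigen processing, at percentiles 95.3 and 89.5. In WT 2 it lay 19165 bp away, near H2-Oa, at percentile 65.5, and in TPdh-/- 3 it lay 63954 bp away, at Col11a2, at percentile 36.3. Brd7 had its nearest outside peak at Adcy7, 39933 to 41126 bp from the gene, in all 5 libraries, at percentiles 78.1 and 57.8 in WT and 86.9, 24.9 and 62.1 in TPdh-/-.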
